A study of Arabidopsis thaliana with 18 samples.

Results

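SCPL34 (AT5G23210, chromosome 5) and BGLU44 (AT3G18080, chromosome 3) are 2 of the 13356 genes that a probe set of the ATH1 array names alone in the platform annotation. Each has 1 such probe set, 249847_at for SCPL34 and 258151_at for BGLU44. They were chosen because their signal was lower on the first run of SA arrays than on the first run of silwet arrays, so that difference is a description and was not tested. Transcript levels of Van-0, an accession of Arabidopsis thaliana, were measured from total RNA on 18 arrays, 1 sample to an array. On 9 arrays the sample had been treated with 0.30 mM SA (salicylic acid, a hormone of plant defence) in 0.02% silwet, and on the other 9 with 0.02% silwet alone, a surfactant that helps a solution wet a leaf. All groups therefore share the surfactant. The labels used here give no tissue, plant age or harvest time.

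The array titles carry a running number and a Rep number from 1 to 3. Within each treatment the running numbers form 3 runs of 3 arrays, each with Rep numbers 1, 2 and 3. Run 1 holds the SA arrays numbered 118 to 120 and the silwet arrays numbered 109 to 111, and runs 2 and 3 follow in the same way. No label says what a run marks. Nor do the labels state whether samples were grown or harvested separately, and p-values here rest on a spread between samples that could be technical.

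SCPL34 belongs to the serine carboxypeptidase-like proteins. Enzymes of this fold are mostly secreted or vacuolar, and they either cut the last residue from a peptide or, in some members, move acyl groups onto plant metabolites. BGLU44 belongs to the glycoside hydrolase family of beta-glucosidases, which release sugars from stored conjugates of hormones, from defence compounds and from pieces of the cell wall. The Arabidopsis BGLU44 enzyme is known to cleave beta-linked mannose as well as glucose. SA is itself stored in plants as sugar conjugates.

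The signal is the deposited MAS5 intensity, a linear value in arbitrary units that can be compared between arrays for 1 probe set but not between probe sets. SCPL34 had signals of 24.4, 16.5 and 32.8 on the SA arrays of run 1 (Rep 1, 2 and 3), against 75.6, 60.6 and 99.1 on the silwet arrays of run 1. All 3 SA arrays lay below all 3 silwet arrays. In run 2 its signals were 121, 81.5 and 110.2 with SA, against 65.7, 69.3 and 77.5 with silwet. Here every SA array lay above every silwet array. In run 3 they were 135, 91.5 and 127 with SA, against 70.5, 87.3 and 144 with silwet. These groups overlapped, and the highest SCPL34 signal of all 18 arrays was that of a silwet array, Rep 3 of run 3.

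BGLU44 had signals of 811, 745 and 844 on the SA arrays of run 1, against 1509, 1571 and 1301 on the silwet arrays of run 1. The groups did not overlap. In run 2 its signals were 2019.9, 1489.9 and 1631 with SA, against 1724, 1536 and 1519 with silwet. In run 3 they were 1624, 1668 and 1512 with SA, against 1596, 1758 and 1695 with silwet. Both later runs overlapped between treatments, and BGLU44 therefore did not share the higher SA signals that SCPL34 had in run 2.

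**Figure D1:**
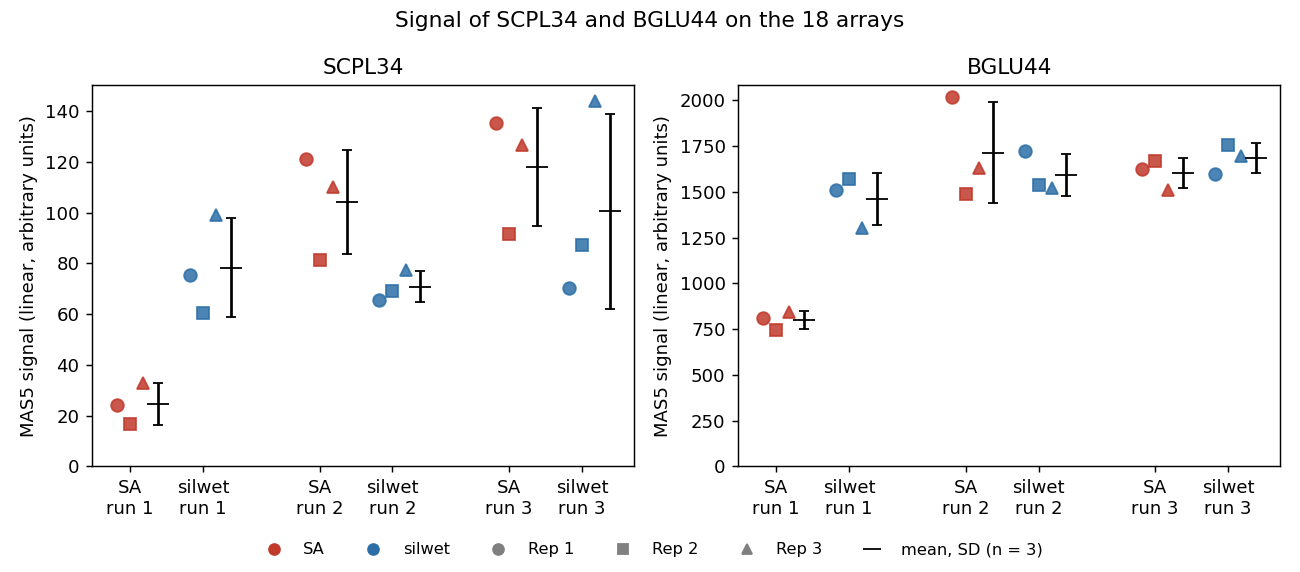
Deposited MAS5 signal (linear, arbitrary units) of SCPL34 and BGLU44 on each of the 18 arrays, with SA left of silwet in each title run; symbols mark Rep numbers, and bars give the mean and SD of 3 arrays. The 3 SA arrays of run 1 are the lowest of all for both genes, at 16.5 to 32.8 for SCPL34 and 745 to 844 for BGLU44.

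For both genes the 3 SA arrays of run 1 stood below each of the other 15 arrays. The other 15 spanned 60.6 to 144 for SCPL34 and 1301 to 2019.9 for BGLU44. Of all 15922 probe sets that passed the filter on low signal, 5.46% had the same arrangement, with every SA array of run 1 lowest. Both genes were picked on these arrays, so nothing is read from this share. In bulk RNA, fewer cells that express a gene and less of its RNA per cell cannot be told apart.

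In run 1 the mean signal of SCPL34 was 24.6 ± 8.15 on SA arrays and 78.4 ± 19.4 on silwet arrays (SD, n = 3 each). The SA minus silwet difference was -1.62 ± 0.33 (SE from the 3 and 3 arrays) on the log2(signal + 2) scale used throughout, which is 0.326 of the silwet level. BGLU44 had 800.0 ± 50.6 on SA arrays and 1460.0 ± 142 on silwet arrays (SD, n = 3 each), a log2 difference of -0.86 ± 0.10 (SE), or 0.55 of the silwet level. By Rep 1, 2 and 3 the log2 differences were -1.56, -1.76 and -1.54 for SCPL34 and -0.89, -1.07 and -0.62 for BGLU44, all 6 below 0. Every SA array lay below every silwet array in run 1 for 10.1% of all tested probe sets, beside 2 of 2 here by choice.

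The run 1 arrays also differed in a measure of array quality. The 5' to 3' signal ratio of the GAPDH control transcript, a sign of RNA or label quality, was 1.12 to 1.26 on the SA arrays of run 1 and 0.940 to 1.05 on its silwet arrays, without overlap. The same ratio for ubiquitin overlapped, at 0.824 to 0.952 with SA and 0.811 to 0.873 with silwet. Median signals overlapped too, at 29.4 to 32.8 with SA and 24.5 to 36.6 with silwet. So did the ratio for actin, at 0.145 to 0.208 with SA and 0.151 to 0.226 with silwet. The part of these ratios in the run 1 differences was not tested. Cell type markers with a probe set of their own overlapped between treatments in run 1. RCA, the Rubisco activase of green tissue, had 2312 to 3161 with SA and 2648 to 3198 with silwet. FMA, a regulator of guard cell fate, had 35.0 to 53.5 with SA and 29.98 to 61.4 with silwet. EXPA18, an expansin of root hairs, had 11.9 to 17.9 with SA and 8.60 to 15.9 with silwet. These EXPA18 signals are low, near the filter cut of 10.9. The other listed markers of these cell types were matched to no probe set of their own or, as EXPA7 of root hairs, were below the filter. In run 1 all 3 listed SA-response markers with a probe set of their own had every SA array above every silwet array (8.62% of all tested probe sets did). These were UGT76B1, GRX480 and WRKY53. Their list was chosen with earlier results of these data known, so nothing is read from this count.

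The SA effect could be tested for these 2 genes only on the 12 arrays of runs 2 and 3, which had no part in their choice. The fit was made over all 15922 tested probe sets with limma, as 4 groups of treatment and run. Over these runs SCPL34 averaged 111 ± 21.0 on SA arrays and 85.7 ± 29.6 on silwet arrays (SD, n = 6 each). The log2 difference was 0.40 ± 0.20 (SE), a fold of 1.32 with a 95% interval of 0.98 to 1.78, and it missed the threshold (adjusted p = 0.702 by limma, unadjusted p = 0.0656). The SA array was higher in all 3 Rep numbers of run 2 and in 2 of 3 of run 3. Without the silwet Rep 1 arrays of runs 2 and 3, which had the lowest GAPDH ratios of the 18 arrays (0.465 and 0.225) and the lowest SCPL34 signals of their groups (65.7 and 70.5), the difference was 0.26 (adjusted p = 0.574 by limma), and without Rep 1 of both treatments it was 0.15 (adjusted p = 0.84). An exact two-sided permutation test of SCPL34 alone exchanged treatments within each run, without keeping Rep numbers paired. This permutation test gave p = 0.07, where the smallest p that 400 arrangements allow is 0.005.

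Markers over runs 2 and 3 are given beside this difference. RCA had a log2 difference of 0.46 (adjusted p = 0.717 by limma), about the size of that of SCPL34, and its lowest signals, 1429 and 1497, were those of the same silwet Rep 1 arrays. FMA had a difference of 0.0033 and EXPA18 one of 0.27 (adjusted p = 0.999 and 0.805 by limma). The part of the RCA difference in that of SCPL34 was not tested. The SA-response markers had differences of 0.91 for UGT76B1, 0.0062 for GRX480 and -0.40 for WRKY53 (adjusted p = 0.699, 0.998 and 0.722 by limma). Of these 0 of 3 passed, where 0 of 15922 probe sets did. UGT76B1 had an unadjusted p of 0.00996 by limma (7.01% of probe sets were under 0.05). In run 3 its SA arrays (31.9 to 34.8) all lay above its silwet arrays (8.72 to 19.2), as for 3.68% of probe sets, and in run 2 they overlapped. GRX480 and WRKY53 overlapped in both runs.

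BGLU44 averaged 1658 ± 191 on SA arrays and 1638 ± 101 on silwet arrays of runs 2 and 3 (SD, n = 6 each). Its log2 difference was 0.01 ± 0.11 (SE), a fold of 1.01 with a 95% interval of 0.857 to 1.19 (adjusted p = 0.991 by limma, exact permutation p = 0.905). The sign of this small difference turned after quantile normalization. The differences of run 1 chose both genes, and a change between run 1 and the later runs was not tested.

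No probe set passed in this comparison, so the background is 0% of 15922 by limma at an adjusted p of 0.05, and 1116 (7.01%) had an unadjusted p under 0.05. Within run 2 alone SCPL34 had a log2 difference of 0.53 ± 0.28 (SE, adjusted p = 0.459 by limma), and BGLU44 had 0.10 ± 0.15 (adjusted p = 0.808). Again 0% of probe sets passed, with 1911 (12%) at an unadjusted p under 0.05. Every SA array lay above every silwet array in run 2, as for SCPL34, in 7.66% of all tested probe sets, and below in 10.5%. Without the silwet array of run 2 and Rep 1, which had a low GAPDH ratio of 0.465, 1243 probe sets passed in run 2, and SCPL34 was not among them (log2 difference 0.48, adjusted p = 0.327 by limma). Within run 3 the differences were 0.27 ± 0.28 for SCPL34 and -0.07 ± 0.15 for BGLU44 (SE, adjusted p = 0.984 for each by limma). That of SCPL34 was -0.06 without Rep 1 and 0.05 without the silwet Rep 1 arrays of both runs, and 0% of probe sets passed (266, or 1.67%, at an unadjusted p under 0.05). In run 3 every SA array lay above every silwet array in 3.68% of probe sets and below in 4.62%, and neither gene was among them.

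**Figure D2:**
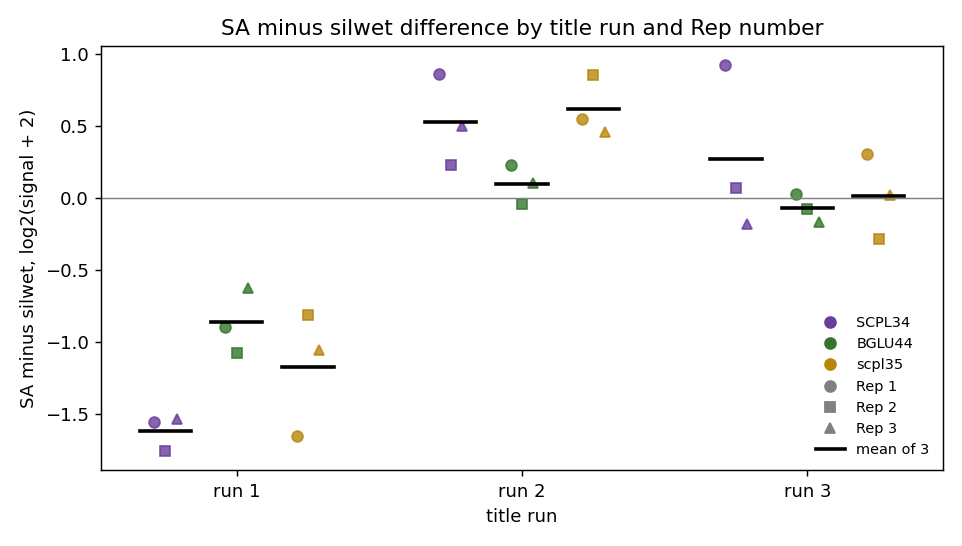
SA minus silwet difference on the log2(signal + 2) scale for SCPL34, BGLU44 and scpl35, by title run; each symbol is 1 Rep number and each bar the mean of 3. The differences lie below 0 in run 1 for every Rep number, where the SCPL34 mean is -1.62 and the BGLU44 mean -0.86, and the SCPL34 differences of run 2 lie above 0.

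Whether the SA effect differed between the later runs was tested by the difference of the run differences, run 3 minus run 2. It was -0.26 ± 0.40 for SCPL34 and -0.17 ± 0.22 for BGLU44 (SE, adjusted p = 0.847 and 0.822 by limma), and 0% of probe sets passed (914, or 5.74%, at an unadjusted p under 0.05). For SCPL34 it was 0.03 without the silwet array of run 3 and Rep 3, the array with the highest signal. Levels of run 3 against run 2, over both treatments, differed by 0.30 ± 0.20 for SCPL34 and by -0.0031 ± 0.11 for BGLU44 (log2, SE, adjusted p = 0.782 and 0.996 by limma). In this comparison 1 probe set passed (0.00628%; 6.83% had an unadjusted p under 0.05), with 0 to 7 when single arrays or Rep numbers were left out.

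The order of the 6 group means was SA run 3 (118), SA run 2 (104), silwet run 3 (101), silwet run 1 (78.4), silwet run 2 (70.8) and SA run 1 (24.6) for SCPL34. For BGLU44 it was SA run 2 (1714), silwet run 3 (1683), SA run 3 (1602), silwet run 2 (1593), silwet run 1 (1460.0) and SA run 1 (800.0). In both orders each pair of neighbours overlapped except the last, where SA run 1 stood apart. Within the groups of 3 the coefficient of variation was 8.57% to 38.3% for SCPL34 and 4.85% to 16.02% for BGLU44.

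Against the later SA arrays, the SA arrays of run 1 had a log2 difference of -2.12 for SCPL34 (means 24.6 and 111) and of -1.04 for BGLU44 (means 800.0 and 1658). Every SA array of run 1 was below every later SA array for both genes, as for 16.6% of all tested probe sets. Against the later silwet arrays, the silwet arrays of run 1 differed by -0.10 for SCPL34 (means 78.4 and 85.7) and by -0.17 for BGLU44 (means 1460.0 and 1638), and they overlapped with them (every silwet array of run 1 lay below the later ones in 3.32% of probe sets and above them in 4.19%). These differences hold arrays that chose the genes and were not tested.

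By Rep number SCPL34 was lowest in Rep 2 in 4 of 6 groups and highest in Rep 3 in 4 of 6. Over runs 2 and 3 its mean was 98.2, 82.4 and 115 in Rep 1, 2 and 3 (4 arrays each), and that of BGLU44 was 1741, 1613 and 1589, lowest in Rep 3 in 3 of 6 groups. The F-test of Rep number by limma did not pass for either gene (adjusted p = 0.465 for SCPL34 and 0.755 for BGLU44). It passed for 1 probe set (0.00628%), while 2562 (16.1%) had an unadjusted p under 0.05.

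Over the 18 arrays SCPL34 and BGLU44 had a Pearson r of 0.88 on the log2 scale. Over the 15 arrays without SA run 1 it was 0.22, and over the 12 arrays of runs 2 and 3 it was 0.27. The likeness of the 2 genes thus rests largely on the 3 SA arrays of run 1, which are among the arrays that chose them. The silwet arrays of run 1, also used in the choice, are still among the 15. Arrays share treatment, run and Rep number and are not independent points.

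**Figure D3:**
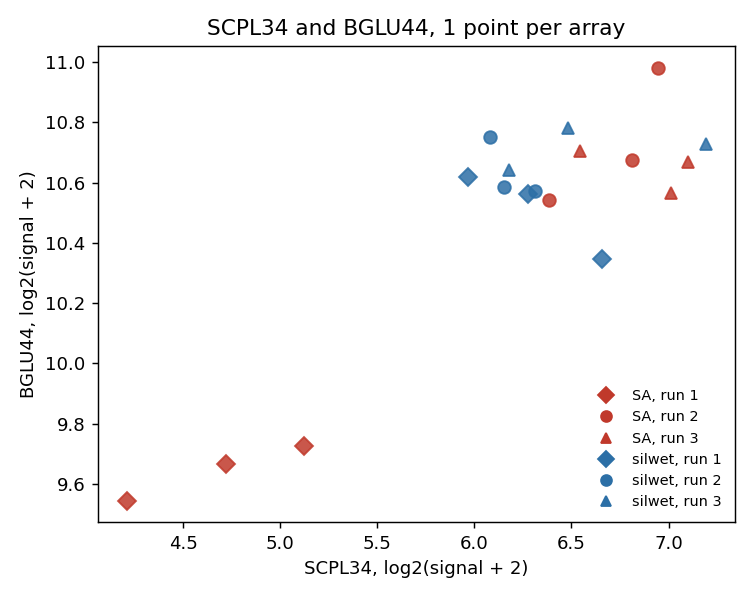
BGLU44 against SCPL34, both as log2(signal + 2), with 1 point per array, coloured by treatment and shaped by title run. The 3 SA arrays of run 1 lie apart at the lower left, and the other 15 show little relation (r = 0.22).

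Among 8674 other genes, those with the highest r with SCPL34 over 18 arrays were AT1G22570 (0.94), AT4G31040 (0.94), AT4G13100 (0.93), AT5G51970 (0.92) and BZIP61 (0.91), a bZIP transcription factor gene. Over the 12 later arrays these r were 0.53 to 0.77, and 0 of these 5 genes were among the 5 with the highest r over the 12 (highest 0.91) or among the 5 with the highest Spearman's rho over the 18. The ranking over 18 arrays includes the SA arrays of run 1 that chose SCPL34. BZIP61 had 2.70 ± 3.03, 32.1 ± 7.18 and 59.0 ± 27.1 with SA in runs 1, 2 and 3, against 12.7 ± 7.64, 20.4 ± 7.26 and 47.7 ± 15.4 with silwet (SD, n = 3). Its SA signals of run 1 were low, at 0.687 to 6.18. The lowest r were those of AT5G24210 (-0.92), AT5G19240 (-0.92) and AT4G02220 (-0.92). AT5G19240 had an r of -0.88 over the 12 later arrays, with means of 1954, 627 and 512 with SA in runs 1, 2 and 3 against 1156, 991 and 806 with silwet.

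For BGLU44 the highest r were those of AT5G59350 (0.95), AT3G06770 (0.93), AT4G02630 (0.93), AT4G35320 (0.92) and AT4G30400 (0.92). Over the 12 later arrays AT5G59350 had 0.81 and the other 4 had 0.21 to 0.65, and 1 of the 5 was among the 5 with the highest r over the 12. AT5G59350 had 27.8 ± 1.95, 142 ± 49.3 and 108 ± 12.2 with SA in runs 1, 2 and 3, against 72.0 ± 17.2, 112 ± 40.1 and 135 ± 16.4 with silwet (SD, n = 3). Like BGLU44 it was lowest on the SA arrays of run 1. The lowest r were those of AT3G09010 (-0.97), AT2G42950 (-0.95) and AT3G29240 (-0.94). AT3G09010 had 289 ± 36.2 on the SA arrays of run 1 and 95.9 ± 11.6 on its silwet arrays (SD, n = 3).

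**Figure D4:**
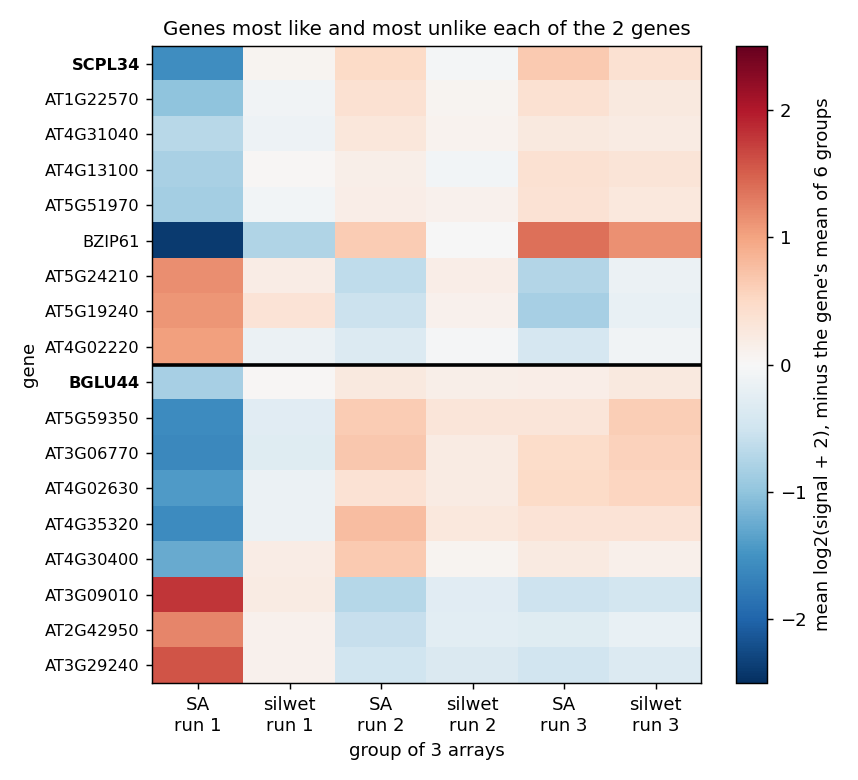
Mean log2(signal + 2) of the 6 groups of 3 arrays, minus each gene's mean over the groups, for SCPL34 (top block) and BGLU44 (bottom block), each followed by the 5 genes of highest and the 3 of lowest Pearson r over 18 arrays. In every gene shown the SA run 1 column holds the value farthest from 0, blue where r was positive and red where it was negative.

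The serine carboxypeptidase-like family had 29 genes with a probe set of their own, of which 19 passed the filter on low signal. By limma 0 of the 19 passed in runs 2 and 3 in either direction, where 0 of 15922 probe sets did. Their log2 differences there were positive for 10 and negative for 9, with a median of 0.01 (median of all tested probe sets -0.01). The members with the largest positive differences were scpl50 (0.86, unadjusted p = 0.000589, adjusted p = 0.614) and scpl44 (0.74, adjusted p = 0.717), and those with the largest negative ones were scpl41 (-0.59, adjusted p = 0.825) and scpl46 (-0.47, adjusted p = 0.699), all by limma. The difference of scpl41 had opposite signs in the later runs, at -1.975 in run 2 and 0.7901 in run 3. Its run 2 signals were 2.19 to 25.3 with SA and 9.01 to 72.7 with silwet. Those of run 3 were 24.5 to 64.4 with SA and 16.8 to 34.6 with silwet, so treatments overlapped in both runs. The signal of scpl50 was 115 ± 19.8 and 73.3 ± 15.5 with SA in runs 2 and 3, against 43.9 ± 7.97 and 56.6 ± 15.7 with silwet (SD, n = 3).

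The near relative scpl35 had a pattern like that of SCPL34. Its signals in run 1 were 137, 109 and 105 with SA, against 435, 192 and 220.3 with silwet. In run 2 they were 393, 495 and 474 with SA, against 268, 273 and 344 with silwet, and in run 3 they were 513, 318.1 and 623 with SA, against 414, 388 and 615 with silwet. As with SCPL34, all SA arrays were below the silwet arrays in run 1 and above them in run 2, and the groups overlapped in run 3. Its log2 difference was -1.17 in run 1 and 0.32 over runs 2 and 3 (adjusted p = 0.724 by limma), and its r with SCPL34 was 0.78 over the 12 later arrays. The annotation gives scpl35 a probe set of its own, and whether the 2 probe sets share signal was not tested. The other near relative, scpl33, had means between 10.95 and 15.1 in all 6 groups, which are low signals near the filter cut of 10.9. In run 2 its SA arrays (12.32 to 19.04) all lay above its silwet arrays (9.97 to 12.02), as for SCPL34. In runs 1 and 3 its groups overlapped.

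Of the 18 tested family members other than SCPL34, 5 had every SA array below every silwet array in run 1 and 2 had every SA array above, 27.8% and 11.1% of them beside 10.1% and 8.62% of all tested probe sets. The 5 were scpl35, scpl50, scpl42, scpl25 and scpl26, with log2 differences of -1.17, -0.91, -0.72, -0.41 and -0.28, and the 2 were scpl46 (0.76) and SCPL45 (0.43). Apart from scpl35, scpl50 and scpl46 these were named after their values were seen. Like SCPL34, scpl35 and scpl33, scpl50 and scpl25 had every SA array above every silwet array in run 2. Their SA signals there were 92.0 to 128 and 119.5 to 162.5, against 38.1 to 53.0 and 92.5 to 111.3 with silwet. The groups of scpl42 and scpl26 overlapped in run 2. Other tested members had every SA array below every silwet array in run 2. These were scpl29 (160 to 221 against 265 to 321) and scpl46 (125 to 184 against 211 to 256). The same held for scpl48 (81.2 to 99.4 against 104.7 to 167.5) and SCPL27 (40.7 to 43.3 against 49.7 to 64.1). Of these, scpl29, scpl48 and SCPL27 were named after their values were seen. The median difference over the 18 members in run 1 was 0.0013 (all tested probe sets -0.0087). Among the 1602 probe sets with every SA array below every silwet array in run 1, 17.9% had every SA array above and 1.62% every SA array below in run 2, and 38.5% had all 3 Rep differences above 0 there. In run 3 the shares above and below were 2.5% and 4.18%.

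The beta-glucosidase family had 22 genes with a probe set of their own, of which 12 passed the filter. By limma 0 of the 12 passed in runs 2 and 3. Log2 differences there were positive for 4 and negative for 8, with a median of -0.13 (median of all tested probe sets -0.01). The largest negative values were those of BGLU46, whose enzyme acts on glucosides of lignin precursors (-0.99, adjusted p = 0.699 by limma), and of BGLU25 (-0.87, adjusted p = 0.699). The largest positive ones were 0.18 for BGLU15 and 0.01 for BGLU44 itself. BGLU46 had 2.87 ± 2.20 and 7.14 ± 5.15 with SA in runs 2 and 3, against 10.9 ± 3.06 and 10.2 ± 4.83 with silwet (SD, n = 3), which are low signals. BGLU25 had 67.3 ± 8.72 and 106 ± 50.03 with SA, against 205 ± 74.9 and 118 ± 41.2 with silwet.

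BGLU43 is the next protein-coding gene to BGLU44 on chromosome 3 in the TAIR10.1 gene table. Its probe set had means of 14.0, 12.2 and 18.3 with SA in runs 1, 2 and 3, against 16.5, 18.2 and 18.1 with silwet, with overlap in every run. Its r with BGLU44 was 0.21 over 18 arrays. In run 1 BGLU42 had 80.7 ± 3.92 with SA and 65.2 ± 24.2 with silwet, and BGLU46 had 18.3 ± 2.80 on SA arrays and 19.1 ± 4.62 on silwet arrays (SD, n = 3 each). BGLU45, which was below the filter, had 10.5 ± 2.03 with SA and 8.01 ± 2.39 with silwet. None of these 4 relatives had all SA arrays below all silwet arrays in run 1, and of the 11 tested beta-glucosidases other than BGLU44 none had (0%, beside 10.1% of all tested probe sets). One, BGLU31, had every SA array above, with 54.2 ± 40.3 on SA arrays and 14.0 ± 2.23 on silwet arrays (SD, n = 3), and was named after its values were seen.

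**Figure D5:**
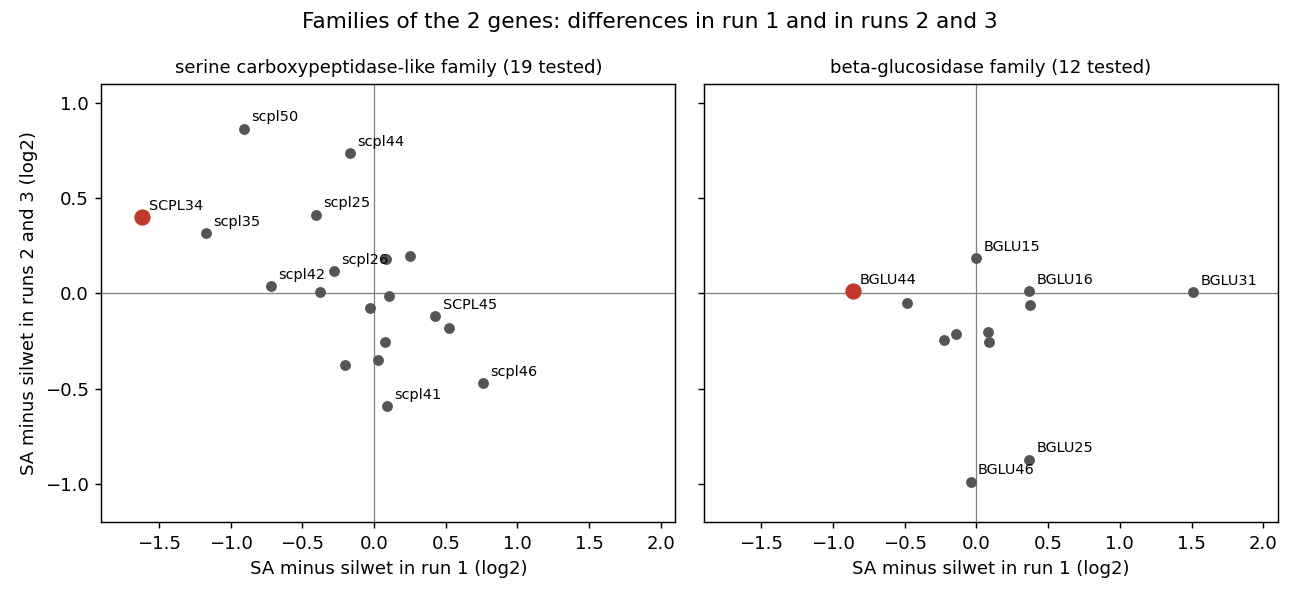
SA minus silwet log2 difference in run 1 (horizontal) and over runs 2 and 3 (vertical) for the tested genes of the serine carboxypeptidase-like family (19) and the beta-glucosidase family (12), with SCPL34 and BGLU44 in red. SCPL34, scpl35, scpl50 and scpl25 are among the genes at the upper left, with negative run 1 and positive later differences. BGLU44 lies near 0 on the vertical axis.

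Of the listed genes that make or break mannan, the polymer whose pieces BGLU44 can cleave, CSLA01 and CSLA03 of the mannan synthase family had a probe set of their own and were tested. By limma 0 of 2 passed in runs 2 and 3, with log2 differences of 0.63 (adjusted p = 0.816) and -0.35 (adjusted p = 0.738). The SA arrays of run 2 spread from 5.75 to 142 for CSLA01.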

How the data were processed

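Per the labels, biotin-labelled total RNA of 18 samples was hybridised to ATH1 arrays. The authors deposited 1 intensity per probe set and array, and the submitters' processing notes name MAS5, in a version not given in the sources used here. Deposited values are linear, and each array had a mean of 100 after 2% was trimmed from each end. Median signals were 23.3 to 36.6. The number of arrays limits the precision.

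Signals were analysed as log2(signal + 2), which understates changes of low signals. Of 22810 probe sets, the 64 controls and the lowest 30% by mean were left out, leaving 15922. Treatments were compared with limma 3.58.1 in R 4.3.3 (intensity trend, two-sided, Benjamini-Hochberg over all tested probe sets, threshold 0.05) and with exact permutation within runs; the fit was tested on simulated data. Probe sets were named by the platform annotation (13513 with 1 gene, 503 with several, 8794 unnamed), with symbols from the TAIR10.1 gene table, which 13436 matched. Named genes are SCPL34, BGLU44, the 5 highest and 3 lowest by Pearson r with each, the 2 largest differences each way in each list, and the relatives scpl33, scpl35, BGLU42, BGLU43, BGLU45 and BGLU46. Outside this rule, markers from the lists are named. So are scpl42, scpl25, scpl26, SCPL45, scpl29, scpl48, SCPL27 and BGLU31, which were named after their values were seen. The members and lists were chosen with earlier results of these data known. Alternatives covered the pseudocount, filter, normalization, replicate block, weights and left-out arrays. Planned promoter motif counts were not made, as no sequence was used here.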

Additional observations from a re-analysis of the deposited data

Results flagged for a closer look

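SCPL34 stood at a signal of 144.1 on the silwet array of run 3 and Rep 3, with 60.6 to 99.1 on the other 8 silwet arrays, a gap wider than Dixon's 95% limit for 9 arrays. On the log2(signal + 2) scale it stayed within that limit. In all, 8 such looks were taken (2 genes, 2 treatments, 2 scales), and chance flags about 1 in 20. BGLU44 on that array was 1695, inside the range of the other silwet arrays.

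The SA minus silwet difference of SCPL34 was -1.62 in run 1, below 0 in all 3 Rep numbers, and 0.53 in run 2, above 0 in all 3. The difference between the runs was not tested, since the run 1 arrays chose the gene. Among the 1602 tested probe sets with every SA array below every silwet array in run 1, 17.9% had every SA array above every silwet array in run 2, as SCPL34 did, beside 7.66% of all tested probe sets.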

How the results depend on the processing

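Of 322 values of SCPL34 and BGLU44 under alternatives of the comparisons within runs 2 and 3, 0 passed the threshold of limma or of the exact test, and 20 turned sign, 18 of them BGLU44 values near 0. After quantile normalization BGLU44 had -0.0101 over runs 2 and 3, -0.0632 in run 2, 0.0431 in run 3 and 0.106 for run 3 minus run 2 of the SA effect; its level in run 3 minus run 2 was 0.0249 with array weights and 0.0447 without both silwet Rep 1 arrays of runs 2 and 3.

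Leaving out Rep numbers or arrays in turn gave these ranges (log2). For SCPL34 they were 0.153 to 0.543 over runs 2 and 3, -0.0573 to 0.556 in run 3 and -0.479 to 0.0262 for the difference of SA effects. For BGLU44 they were -0.0499 to 0.0597 over runs 2 and 3, -0.0285 to 0.191 in run 2, -0.0939 to 0.102 for the level in run 3 minus run 2, and -0.98 to -0.76 in run 1. The run 1 difference of SCPL34 was -1.78 to -1.44 when Rep numbers or, an alternative added after seeing the data, single silwet arrays were left out, and -1.22 with a pseudocount of 16.

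Counts of calls moved more. In run 2 they were 0 to 1243 when arrays were left out and 2386 without both silwet Rep 1 arrays of runs 2 and 3, whose GAPDH ratios were 0.465 and 0.225; the difference of SA effects then had 531, and 968 with array weights. For run 3 minus run 2 the count was 0 to 7 when arrays were left out, 0 without those 2 arrays, 0 without the trend, 15 with array weights and 4 with all 18 arrays. For Rep number it was 2 with the lowest 50% left out or with array weights, 733 with all 18 arrays and 0 to 2 when arrays were left out. The causes were not tested.

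With Rep number as a fixed block, run 3 minus run 2 had 4 calls, and with run and Rep number as a random block 0. Over runs 2 and 3 a block cannot move the log2 difference of SCPL34 (0.40) in this balanced design; its unadjusted p was 0.0457 with the fixed and 0.0338 with the random replicate block, against 0.0656 without, and its adjusted p by limma 0.479 and 0.334, against 0.702. Deviations of SA and silwet arrays that share run and Rep number correlated at 0.02 to 0.53, and 8 of 9 SA arrays correlated best with their own number. The r of SCPL34 with BGLU44 was 0.27 over runs 2 and 3, 0.53 as Spearman's rho over 18 arrays and 0.22 without SA run 1, the last added after seeing the data.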
